A study of Bos taurus with 8 samples.

Results

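Heat shock proteins and chaperones were followed in the lungs of newborn calves, as 75 of the 9867 named genes that the bovine array measured. They were taken by symbol: the HSPA and HSPH genes, HSP90, the HSPB genes with CRYAB, the DNAJA, DNAJB and DNAJC genes, the CCT genes with TCP1, HSPD1 and HSPE1, the BAG genes, the co-chaperones STIP1, AHSA1 and PTGES3, and the heat shock factors HSF1 and HSF2. The bovine gene table held 93 such symbols, of which 80 had a probe on the array and 75 had at least 1 probe well above background on 4 or more of the 8 arrays. DNAJB3, DNAJB7, DNAJC22, DNAJC5B and HSPB9 had no such probe and were left out. Each member is represented by its brightest probe, and 72 of the 75 were well above background on all 8 arrays.

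The study compared 4 cloned Holstein calves with respiratory failure and 4 normal, healthy Holstein calves, with 1 single-colour array of lung RNA per animal. Every sample is labelled as 4 days old, and the series text places the deaths of the clones within 4 days of birth and the slaughter of the controls at that age. The clones therefore differ from the controls in the cloning, in the respiratory failure and in the way they died. By Y-linked signal, given below, 3 of the 4 clones also differed from the controls in sex. Neither the donor cells of the clones nor the time from death to sampling is given in the sources used here.

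Chaperones bind proteins that are not yet folded, or have lost their fold, and keep them from clumping. HSP70 proteins grip short exposed stretches, and J-domain proteins bring them their clients and trigger their ATPase. Exchange factors such as the HSP110 proteins and several BAG proteins let the client go. HSP90 finishes signalling proteins such as steroid receptors and kinases, the chaperonins enclose a client in a barrel, the small heat shock proteins hold clients without ATP, and HSF1 switches on many of these genes when unfolded protein builds up.

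All levels below are log2 processed signal minus the 75th percentile of the same array, so 0 is the brightness of the upper quartile of that animal's probes, and a difference of 1 is a doubling. Levels of different genes come from different probes and cannot be set against each other. The share of spots well above background was 78.8% to 80.6% in clones and 80.4% to 83.5% in normal animals, and no spot was saturated. All clones lay on 1 slide and all normal animals on another, so slide and group cannot be told apart. Probes for DDX3Y and USP9Y, which are Y-linked, gave signal above background in 3 of the clones, all but clone 1, and in 0 of the 4 normal animals. Clones of 1 donor line share their sex, so this signal goes against a single line for all 4 clones. Read by this signal, the groups overlap in sex only through clone 1, and the part of sex in the differences was not tested. The 6 surfactant and alveolar type II markers were measured in every animal as labelled for lung, with a mean between 4.53 and 5.52 in clones and between 4.94 and 5.04 in normal animals.

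No chaperone differed between the groups at the threshold: 0 of 75 had an adjusted p under 0.05 (limma), where 0.182% of all genes and 0.177% of all probes did. An unadjusted p under 0.05 was reached by 6 members, with HSF2 and CCT6B higher and DNAJB13, HSPA1L, HSPA2 and HSPH1 lower in clones, against 13% of all genes. The 2 higher members stand beside 6.37% of genes and the 4 lower beside 6.58%. The median difference of the members was -0.07, beside -0.02 over all genes, and was -0.19 with quantile normalization and in the authors' deposited table, -0.17 with normexp and quantile normalization and -0.13 over the mean of all kept probes of a gene. Over all genes these settings gave -0.05, -0.04, -0.02 and -0.04 in place of -0.02. Differences ran from -1.22 for DNAJB13 to 0.87 for DNAJC6. Negative differences were seen in 48 members, or 64%, and in 51.6% of all genes. With normexp background correction before the same centring, 53.3% of members and 60% of genes were negative. A difference beyond 0.5 in either direction was measured in 15 members, or 20%, against 26.5% of genes. The 95% interval of a member reached a median of 0.632 to either side, so smaller differences in either direction were in general not detectable with these 8 arrays.

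**Figure D1:**
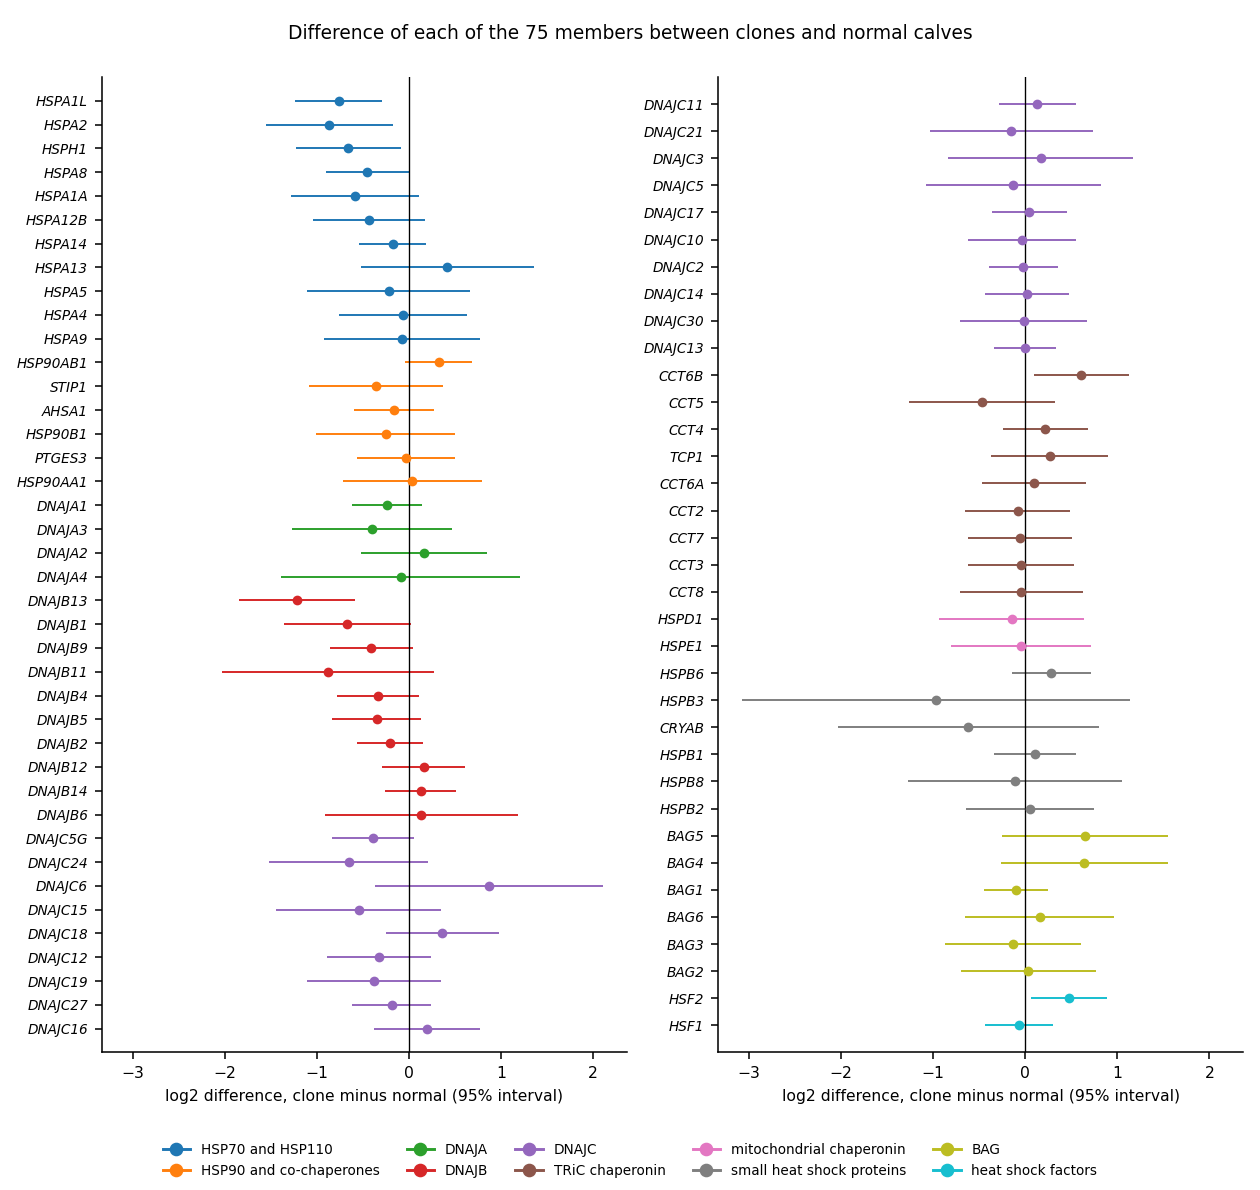
Clone minus normal difference (log2, horizontal axis) of each of the 75 members with its 95% interval from limma, grouped by family. The points run from -1.22 (DNAJB13) to 0.87 (DNAJC6), and none passed an adjusted p of 0.05.

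The groups did not overlap in 5 of 75 members (6.67%), against 9.83% of all genes. On their brightest probes HSF2 and HSP90AB1 were higher in every clone, and DNAJB13, HSPA1L and DNAJC5G were lower in every clone. For HSP90AB1 clone 4 lay below every normal animal on the 5 other probes. For HSF2 clone 1 lay within the normal range on the other probe. The share of all genes with separate groups was 5.05% in the higher and 4.78% in the lower direction. These counts lie near or below the background of the array.

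What set the clones apart was their spread. The SD over the 4 clones exceeded that over the 4 normal animals in 69 of 75 members (92%), as it did in 91.1% of all genes. The median SD of a member was 0.503 in clones and 0.133 in normal animals, and the median ratio was 3.85, beside 3.20 over all genes. The median deviation of the members in each normal animal from the other 3 was 0.12, -0.03, -0.11 and 0.03. Among clones 1 to 4, against the mean of the normal animals, it was 0.23, -0.26, -0.06 and -0.31.

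The clones parted in a way that many members shared. Clone 1 was above every normal animal in 44 members (58.7%) and below every one in 13 (17.3%), where the shares over all genes were 40% and 36.9%. Clone 2 was above in 8 (10.7%) and below in 51 (68%), with 33.9% and 37.9% of all genes. Clone 4 was placed much as clone 2, above in 9 (12%) and below in 49 (65.3%), with 36.8% and 35.9% of all genes. Clone 3 was divided, with 30 members above (40%) and 35 below (46.7%). Its shares of all genes were 39.1% and 41.2%. The members share 1 array per animal and are not independent, so these shares describe 4 animals.

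**Figure D2:**
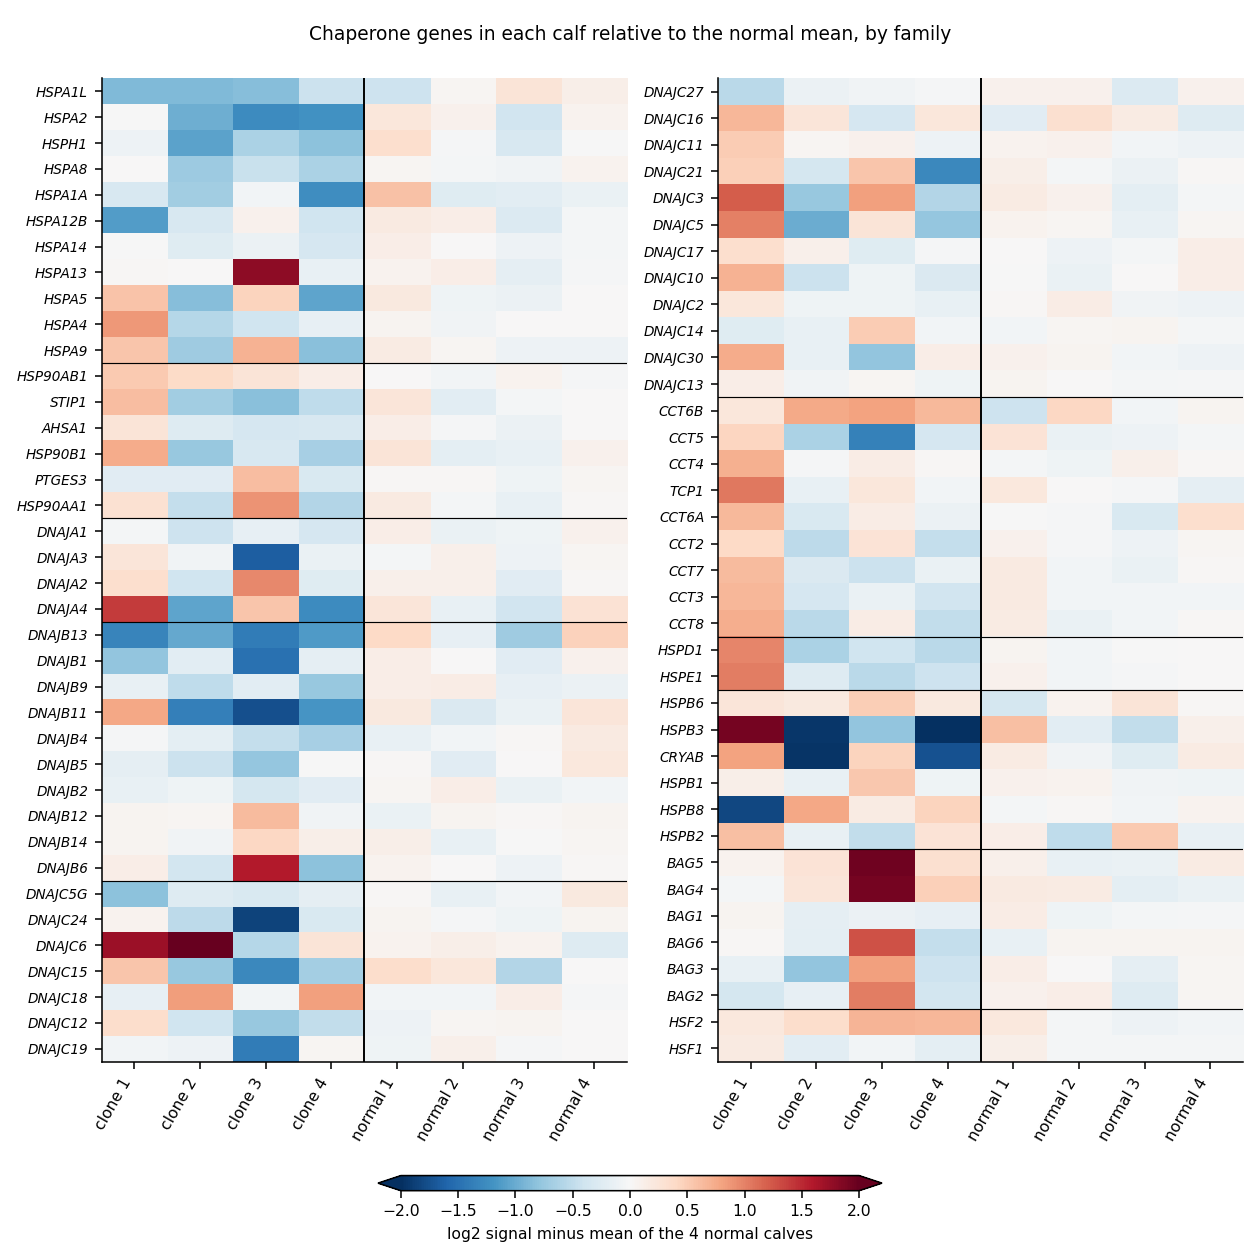
Deviation of each animal from the mean of the 4 normal animals (log2, colour scale) for the 75 members in rows by family, with clones 1 to 4 and normal animals 1 to 4 in columns. Clone 1 is above every normal animal in 44 members, and clones 2 and 4 are below every one in 51 and 49.

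The commonest order, clone 1 above and clones 2, 3 and 4 below every normal animal, was that of 15 members (20%) and of 7.03% of all genes. It took in AHSA1, STIP1, HSF1, HSP90B1, HSPA4, HSPB3, HSPD1, HSPE1, CCT3, CCT5, CCT7, DNAJB11, DNAJC12, DNAJC15 and DNAJC24. A second order, with clones 1 and 3 above and clones 2 and 4 below, was that of 11 members (14.7%) and of 4.62% of genes, among them HSPA5, HSPA9, HSP90AA1, CRYAB and DNAJC3. In a further 8 members (10.7%, against 3.13% of genes), HSPA8, HSPH1, HSPA2, HSPA14, DNAJA1, DNAJB4, DNAJB9 and BAG1, clone 1 lay within the normal range and the other clones below it. These orders were read off the values and carry no test. The placing of single clones was compared on other probes over all 50 members with several kept probes, not for these orders alone. Of 337 placements of a clone on the 104 other kept probes, 76% fell on the same side of the normal range and 9.2% on the opposite side. These probes read the same RNA, and no share over all genes is given. Some listed members departed from their order. For example, clone 3 lay above every normal animal on 2 of 3 probes of HSF1 and of CCT5, and on 2 of 5 of DNAJA1. Clone 1 departed as well. On the other kept probe of DNAJC24 it lay below every normal animal, at -3.76 against -3.20 to -2.72. On the other kept probes of AHSA1 and HSPA4 it lay within the normal range.

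Markers of dividing cells were highest in clone 1. The mean of 6 measured of 8 listed markers ran to 0.86, -1.48, -2.32 and -0.90 from clone 1 to clone 4, with normal animals between -3.64 and -2.20. Clones 2 and 4 were thus also above every normal animal in this mean, though they lay below every one in 51 and 49 of the 75 members. The means of erythroid markers, at 0.05 in clone 1, and of B and plasma cell markers, at -0.34, were also higher there than in the other 7 animals. So were those of alveolar type II markers, at 5.52 with at most 5.04 elsewhere, and of neutrophil markers, at 0.57 with at most 0.45 elsewhere. Of the neutrophil markers, S100A8, S100A9 and S100A12 were highest in clone 1. CXCR2 and CATHL5 were below every normal animal there, at -4.69 and 0.39, and BPI and MPO lay within the normal range. Clone 1 is further the clone without Y-linked signal. The part of these in the chaperone values was not tested. In a bulk sample, fewer cells of a type and less RNA per cell cannot be told apart.

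The HSP70 and HSP110 family had mostly negative differences. Of its 11 members 10 had a negative difference and 1 a positive one, with a median of -0.43, and the median stayed between -0.31 and -0.45 over the scalings tried. Per clone the family's median deviation was -0.01, -0.71, -0.11 and -0.63. Clones 2 and 4 each lay below every normal animal in 10 of the 11, and in 37.9% and 35.9% of all genes. No member passed the test.

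HSPA8, the constitutive HSP70 of the cytosol, read 5.46, 4.72, 5.0005 and 4.82 from clone 1 to clone 4, and 5.49, 5.41, 5.38 and 5.53 in normal animals. Clones 2, 3 and 4 lay below every normal animal and clone 1 among them, for a difference of -0.45 (SE 0.20, adjusted p = 0.383) that was -0.71 with quantile normalization. All 6 of its probes were lower, by -0.45 to -0.92, and on 4 of the 6 the groups were separate. HSPH1, an HSP110 that helps HSP70 release its client, measured 2.41, 1.43, 1.88 and 1.69 in clones and 2.85, 2.49, 2.20 and 2.51 in normal animals. Again clone 1 alone overlapped the normal animals, and the difference was -0.66 (95% interval -1.22 to -0.09, adjusted p = 0.309). HSPA2, an HSP70 best known from the testis, measured -2.63, -3.59, -3.88 and -3.83 in clones and -2.38, -2.53, -3.00 and -2.55 in normal animals, with the same order of clones and a difference of -0.86 (adjusted p = 0.273).

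These 3 genes and DNAJB11 are those whose test turned on clone 1. Without it, HSPA8 was lower by -0.60 (adjusted p = 0.0438), HSPH1 by -0.84 (adjusted p = 0.0499), HSPA2 by -1.15 (adjusted p = 0.0224) and DNAJB11 by -1.44 (adjusted p = 0.0178). The 3 clones left in this comparison all have Y-linked signal and no normal animal does, so sex and group cannot be told apart in it. With clone 1 left out 4 of 75 members (5.33%) passed, all lower, where 7.15% of all genes passed and 3.41% passed as lower. The share of members is again near that of the array. When arrays were instead weighted by how closely they followed their group, 29 members passed, 4 higher and 25 lower (38.7%), against 32.4% of all genes, 15.7% higher and 16.8% lower.

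**Figure D3:**
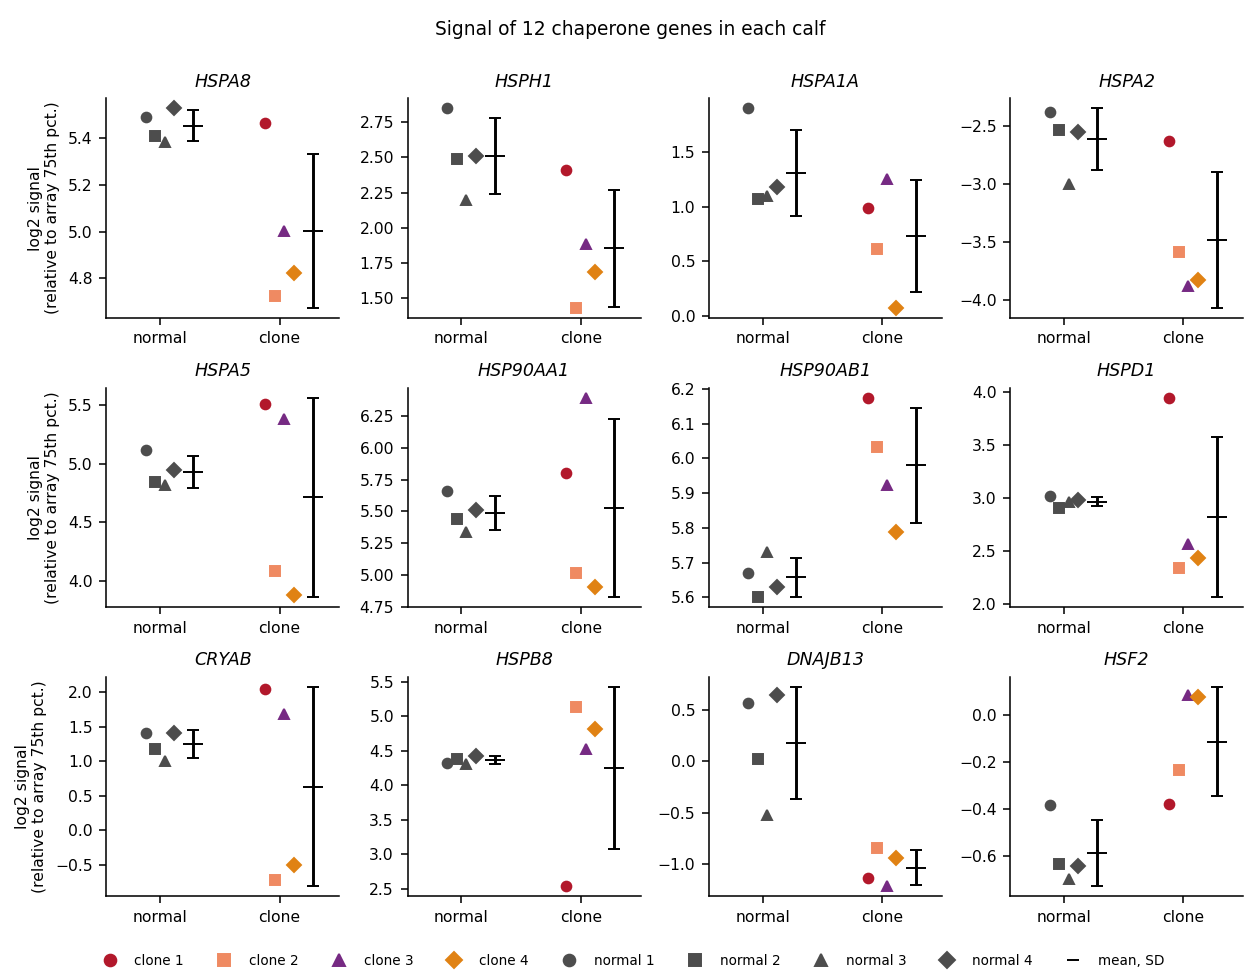
Level of selected members (log2 processed signal relative to the 75th percentile of the array) in each clone and each normal animal, with points for animals and bars for the group mean and SD (n = 4 each). In HSPA8 clones 2, 3 and 4 sit between 4.72 and 5.0005, below the normal animals at 5.38 to 5.53, while clone 1 sits at 5.46.

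The stress-inducible HSP70 gene HSPA1A measured 0.99, 0.61, 1.25 and 0.07 in clones and 1.90, 1.07, 1.10 and 1.18 in normal animals. Clone 3 lay within the normal range and the other clones below it, and the difference of -0.58 did not pass (adjusted p = 0.468). Mammals carry near-identical copies of this gene, and which of them the probe reads was not examined. Its testis-enriched neighbour HSPA1L was dim, at -6.19, -6.19, -6.15 and -5.74 in clones and -5.72, -5.26, -5.05 and -5.19 in normal animals, with 3 of 4 clones well above background. Every clone lay below every normal animal, clone 4 only just, with a difference of -0.76 (adjusted p = 0.191) that was -0.13 with normexp and quantile normalization.

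HSPA5, the HSP70 of the endoplasmic reticulum known as BiP, parted the clones in pairs. It measured 5.51, 4.08, 5.38 and 3.87 in clones and 5.12, 4.84, 4.82 and 4.94 in normal animals, so that clones 1 and 3 were above and clones 2 and 4 below every normal animal. On 3 of its 4 probes all clones were placed this way, and on the other clone 3 lay within the normal range. The mean difference was -0.22 (95% interval -1.10 to 0.66). HSPA9, the mitochondrial HSP70, followed with 3.71, 2.45, 3.86 and 2.32 in clones against 3.05 to 3.32 in normal animals. Its difference was -0.07, and 0.0970 with normexp and 75th percentile centring.

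HSPA4, a cytosolic HSP110, measured 3.24, 1.81, 1.98 and 2.22 in clones and 2.43, 2.31, 2.39 and 2.39 in normal animals. Clone 1 was above and the others below, and the difference of -0.06 was 0.0512 with normexp and 75th percentile centring, while its second probe gave -1.10. HSPA13, a microsomal HSP70, was the positive member of the family, at -1.10, -1.13, 0.65 and -1.28 in clones and -1.06, -0.997, -1.30 and -1.16 in normal animals. The difference of 0.42 (adjusted p = 0.723) rested on clone 3 and was -0.04 without it. HSPA14, a ribosome-associated HSP70, differed by -0.18. HSPA12B, a distant relative found in endothelium, measured -0.62 in clone 1, 0.11 to 0.59 in the other clones and 0.23 to 0.68 in normal animals. The mean of 6 measured endothelial markers was also lowest in clone 1, at 1.74, with 2.61 to 3.56 in the other clones and 3.01 to 3.46 in normal animals, and its part in the HSPA12B values was not tested. HSPA12B was chosen after its values were seen.

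Of HSP90 and its co-chaperones, 2 of 6 members were higher and 4 lower, none of them past the test, with a median of -0.10 that was 0.01 with normexp and 75th percentile centring. The family's median deviation was 0.41, -0.37, -0.03 and -0.42 in clones 1 to 4. Clone 1 lay above every normal animal in 5 of the 6 members, against 40% of all genes. Clones 2 and 4 each lay below in 5, against 37.9% and 35.9% of all genes.

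The cytosolic HSP90 genes differed in pattern. HSP90AB1, the constitutive form, measured 6.17, 6.03, 5.92 and 5.79 in clones and 5.67, 5.60, 5.73 and 5.63 in normal animals, with every clone above every normal animal. The difference was 0.32 (95% interval -0.04 to 0.68, adjusted p = 0.437), but 0.00478 with quantile normalization and 0.0110 with normexp and quantile normalization. Its 6 probes all had a positive difference, between 0.06 and 0.32, and clone 1 lay above every normal animal on all 6. Clone 4 was above on the brightest probe and below every normal animal on the other 5, so the groups were separate on 1 of the 6. HSP90AA1, the inducible form, measured 5.80, 5.01, 6.39 and 4.91 in clones and 5.66, 5.44, 5.34 and 5.51 in normal animals. Clones 1 and 3 were above and clones 2 and 4 below, and the difference of 0.04 was -0.21 with quantile normalization and in the authors' deposited table. HSP90B1, the HSP90 of the endoplasmic reticulum, measured 5.65, 4.15, 4.59 and 4.25 in clones and 5.17, 4.71, 4.77 and 4.999 in normal animals, with clone 1 alone above and a difference of -0.25 (adjusted p = 0.797).

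The co-chaperones of HSP90 mostly followed the order of clone 1 above and the others below. STIP1, the HOP protein that hands clients from HSP70 to HSP90, measured 3.75, 2.43, 2.30 and 2.62 in clones and 3.38, 2.93, 3.10 and 3.14 in normal animals, and all 6 of its probes placed every clone the same way. AHSA1, which stimulates the ATPase of HSP90, measured 3.38 in clone 1, 2.78 to 2.86 in the other clones and 2.99 to 3.25 in normal animals. PTGES3, the p23 that stabilises HSP90 with its client, was instead high in clone 3, at 4.03, with 3.10 to 3.19 in the other clones and 3.31 to 3.44 in normal animals. The differences were -0.36 for STIP1, -0.16 for AHSA1 and -0.03 for PTGES3, the last being 0.11 with normexp and 75th percentile centring.

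The J-domain proteins, which recruit clients to HSP70, were the largest group, with 33 members of which 12 were higher and 21 lower. The median difference was -0.16 for 4 DNAJA genes, -0.34 for 10 DNAJB genes and -0.02 for 19 DNAJC genes, and none passed. The DNAJC median was 0.01 when arrays were centred on the median probe, and the other medians kept a negative sign under each scaling.

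DNAJB13, a component of the radial spokes of motile cilia and sperm tails, had the lowest difference and the smallest p of all members. It measured -1.14, -0.84, -1.22 and -0.95 in clones and 0.58, 0.02, -0.52 and 0.65 in normal animals, where the clones lay together below every normal animal. The difference of -1.22 (SE 0.28, 95% interval -1.85 to -0.58), a 2.32-fold lower signal, had an adjusted p of 0.141. All 7 measured of 10 listed markers of ciliated cells had a negative difference as well, none past the test. Their mean ran to -4.51, -2.95, -3.91 and -3.35 from clone 1 to clone 4, with normal animals between -3.32 and -2.28, and their part in the DNAJB13 values was not tested.

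DNAJB1, the main J protein of the heat shock response, measured 1.51, 2.09, 0.81 and 2.13 in clones and 2.44, 2.31, 2.07 and 2.39 in normal animals. On this probe clones 1 and 3 lay below every normal animal, and clones 2 and 4 at the lower edge. The difference was -0.67 (95% interval -1.36 to 0.02, adjusted p = 0.395). The other kept probe of DNAJB1 differed by -0.30 and placed the clones otherwise. There clone 1 lay above every normal animal, clones 2 and 4 below every one, and clone 3 within the normal range. DNAJA1, a general cytosolic J protein, measured 3.43, 3.06, 3.31 and 3.13 in clones and 3.33 to 3.60 in normal animals and differed by -0.23. DNAJA4 had a wide spread, at -1.13, -3.58, -1.98 and -3.78 in clones and -2.92 to -2.23 in normal animals, with clones 1 and 3 above and clones 2 and 4 below. Its difference of -0.09 was 0.04 with normexp and quantile normalization.

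The J proteins of the endoplasmic reticulum went with HSPA5 or HSP90B1 in part. DNAJB11, a partner of BiP, measured 2.45, 0.30, -0.09 and 0.49 in clones and 1.86, 1.37, 1.53 and 1.91 in normal animals, with clone 1 above and the others well below on both of its probes. Its difference over all clones was -0.88 (95% interval -2.03 to 0.27, adjusted p = 0.511). DNAJB9, which helps clear misfolded protein from the endoplasmic reticulum, measured 0.97, 0.60, 0.91 and 0.35 in clones and 1.24, 1.26, 0.95 and 1.00 in normal animals, a difference of -0.41 (adjusted p = 0.429). DNAJC3, another BiP partner, measured 3.55 and 3.16 in clones 1 and 3, 1.58 and 1.76 in clones 2 and 4, and 2.15 to 2.50 in normal animals.

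Of the DNAJC genes, DNAJC6, the auxilin that strips clathrin from vesicles, had the highest difference of all members, 0.87 (adjusted p = 0.549). It was dim, at -4.74, -4.38, -7.03 and -6.21 in clones and -6.39, -6.35, -6.39 and -6.71 in normal animals, and was well above background in 2 clones and 3 normal animals. The difference was -0.61 with normexp and 75th percentile centring. The other kept probe of DNAJC6, also dim, differed by -0.04. Clone 2, the highest animal on the brightest probe, lay below every normal animal there, at -6.92. DNAJC18 measured 0.65, 1.64, 0.76 and 1.63 in clones and 0.75 to 0.95 in normal animals, with clones 2 and 4 above and clone 1 below. Its 2 probes differed by 0.36 and 0.64 but placed clone 1 on opposite sides. On the dimmer probe every clone lay above every normal animal, with clone 1 highest at -2.66. DNAJC5G was also dim, at -3.99, -3.42, -3.47 and -3.35 in clones and -3.15, -3.32, -3.22 and -2.98 in normal animals, every clone below every normal animal, with a difference of -0.39 (adjusted p = 0.445).

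Clone 3 was low in DNAJA3, DNAJC19 and DNAJC24, which were chosen after their values were seen. DNAJA3, a mitochondrial J protein, measured -0.63 in clone 3, 0.88 to 1.25 in the other clones and 0.92 to 1.11 in normal animals. DNAJC19, of the import motor of the inner membrane, measured -0.23 in clone 3, 1.06 to 1.20 in the other clones and 1.07 to 1.26 in normal animals. DNAJC24, an enzyme of diphthamide synthesis in the cytosol, measured -3.40 in clone 3, -2.07 to -1.48 in the other clones and -1.63 to -1.49 in normal animals. In DNAJC11, also of mitochondria and likewise chosen after its values were seen, clone 3 was at 2.085, just above the highest normal animal at 2.083. The remaining J proteins differed by -0.55 (DNAJC15) to 0.20 (DNAJC16).

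**Figure D4:**
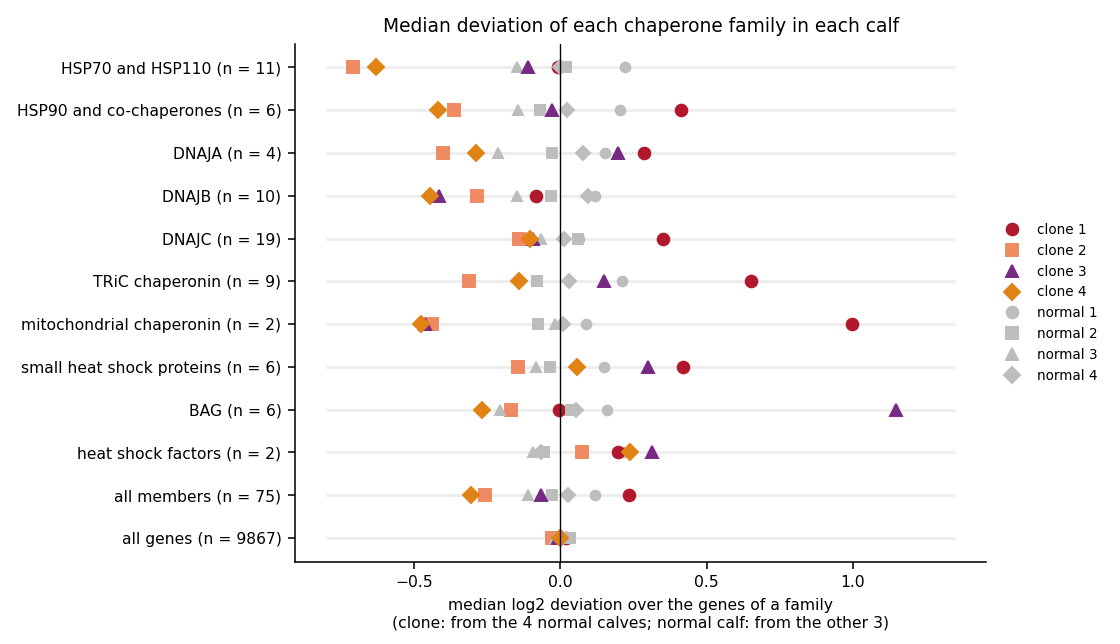
Median log2 deviation over the genes of each family (horizontal axis), with a point for each animal, measured from the 4 normal animals for a clone and from the other 3 for a normal animal. Clone 1 is highest for the mitochondrial chaperonin (1.00) and TRiC (0.65), clone 3 for the BAG genes (1.15), and clones 2 and 4 are lowest for the HSP70 and HSP110 family (-0.71 and -0.63).

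The chaperonins had the plainest difference between clone 1 and the others. TRiC, the cytosolic barrel that folds actin and tubulin, is built from the CCT subunits and TCP1. Of its 9 measured genes 4 were higher and 5 lower, with a median of -0.04 that was 0.10 with normexp and 75th percentile centring, and none passed. In clones 1 to 4 the median deviation was 0.65, -0.31, 0.15 and -0.14. Clone 1 lay above every normal animal in 8 of the 9, against 40% of all genes.

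TCP1 itself measured 5.16, 3.95, 4.33 and 4.04 in clones and 4.32, 4.11, 4.08 and 3.92 in normal animals, a difference of 0.27 (95% interval -0.37 to 0.90) that was 0.12 with quantile normalization. CCT4 measured 4.74, 4.02, 4.19 and 4.05 in clones and 3.95 to 4.14 in normal animals and differed by 0.22, or 0.07 with quantile normalization. Clone 1 stood well above the other animals in both genes. CCT6B, the subunit best known from the testis, was the exception and measured -4.12, -3.59, -3.55 and -3.71 in clones and -4.76, -3.94, -4.41 and -4.31 in normal animals. Clones 2, 3 and 4 were above every normal animal and clone 1 among them, with a difference of 0.61 (95% interval 0.09 to 1.13, adjusted p = 0.302) that was -0.45 with normexp and 75th percentile centring. Its other probe gave 0.68.

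HSPD1 and HSPE1, the barrel and lid of the mitochondrial chaperonin, placed each clone on the same side of the normal animals. Clone 1 was above as in TCP1 and CCT4, but clone 3, above every normal animal in those genes, was below in HSPD1 and HSPE1. HSPD1 measured 3.94, 2.34, 2.57 and 2.43 in clones and 3.01, 2.91, 2.96 and 2.98 in normal animals, so that the normal animals lay close together while clone 1 stood above and the other clones below. All 5 of its probes gave this order. HSPE1 measured 5.08, 3.81, 3.53 and 3.64 in clones and 4.14, 4.00, 4.04 and 4.06 in normal animals, and both of its probes did the same. The mean differences were -0.14 (95% interval -0.93 to 0.64) and -0.05 (-0.80 to 0.71), the latter being 0.11 with normexp and 75th percentile centring. A comparison of means thus showed little of what these genes did in single clones.

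**Figure D5:**
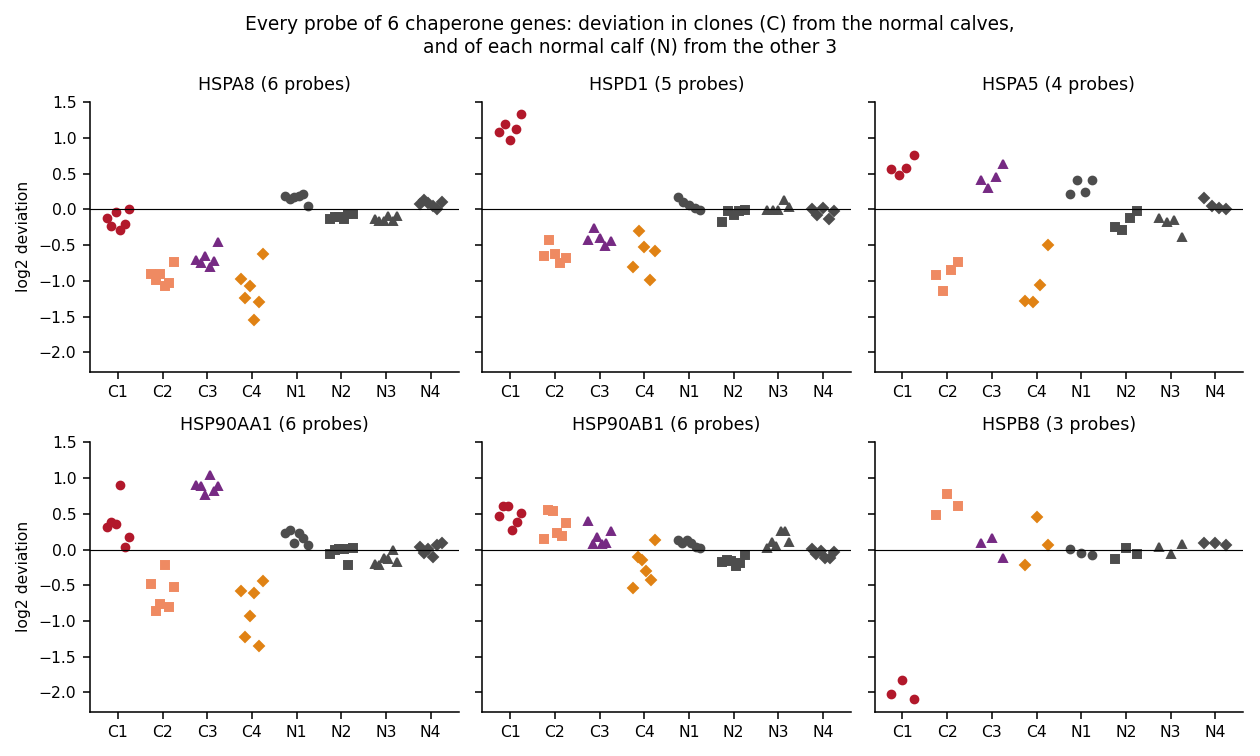
Log2 deviation (vertical axis) on every kept probe of 6 members, with a point for each probe, of clones (C1 to C4) from the normal mean and of each normal animal (N1 to N4) from the other 3. Clone 1 is above and clones 2, 3 and 4 are below the normal animals on all 5 probes of HSPD1, and HSPB8 is low in clone 1 on all 3 probes.

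The small heat shock proteins, with CRYAB, were divided, with 3 higher and 3 lower, a median of -0.03 and no call. The median was 0.04 with normexp and 75th percentile centring. HSPB1, also known as HSP27, measured 6.39, 6.13, 6.81 and 6.19 in clones and 6.36, 6.35, 6.20 and 6.18 in normal animals. Its difference was 0.11 (95% interval -0.33 to 0.55), but -0.31 with quantile normalization. CRYAB, the alpha-B crystallin, measured 2.05, -0.72, 1.69 and -0.49 in clones and 1.41, 1.17, 1.00 and 1.40 in normal animals, with clones 1 and 3 above and clones 2 and 4 below.

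The difference in CRYAB was -0.62 (95% interval -2.04 to 0.80, adjusted p = 0.732). The mean of macrophage markers was also low in clones 2 and 4. For 6 measured of 9 listed it was 3.01, 1.78, 3.59 and 1.52 from clone 1 to clone 4, with normal animals from 3.14 to 3.67. CD14, CD68 and CD163 parted the clones in this way. C1QA and C1QB were instead lowest in clone 1, at 4.70 and 3.84, and CSF1R was 3.26 in clone 1 and 3.33 in clone 2. Smooth muscle markers, which could carry CRYAB and HSPB6, had a mean of 1.95, 1.66, 2.61 and 2.01 in clones and 2.09 to 2.52 in normal animals, and cardiac and skeletal muscle markers -2.37 to -2.02 in clones and -2.12 to -2.07 in normal animals. Their part in the CRYAB values was not tested.

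HSPB8, which works with BAG3 to send clients to autophagy, measured 2.54, 5.13, 4.52 and 4.81 in clones and 4.33, 4.38, 4.31 and 4.43 in normal animals. It was the reverse of the mitochondrial chaperonin genes HSPD1 and HSPE1, with clone 1 far below and the other clones above every normal animal. Clone 1 was low on all 3 of its probes, while clones 3 and 4 each lay on both sides of the normal mean. The difference of -0.11 was 0.46 without clone 1 and 0.00381 with normexp and 75th percentile centring. HSPB3, a muscle form, was dim and had the widest spread, at -3.15, -7.01, -5.85 and -8.13 in clones and -4.47, -5.27, -5.55 and -4.97 in normal animals, with 2 of 4 clones well above background, so its difference of -0.97 is limited by background and was -0.03 with normexp and quantile normalization. HSPB6, a form abundant in smooth muscle, measured 0.64, 0.59, 0.89 and 0.59 in clones and 0.04, 0.47, 0.65 and 0.41 in normal animals and differed by 0.29 (adjusted p = 0.570).

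The BAG genes, several of which encode exchange factors that release clients from HSP70, were those in which clone 3 stood apart. Of 6 members 4 were higher and 2 lower, with a median of 0.10 and none past the test. Clone 3 lay above every normal animal in 5 of the 6, against 39.1% of all genes. The family's median deviation was 0.00, -0.17, 1.15 and -0.27 in clones 1 to 4. Without clone 3 the median difference was -0.15.

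BAG5 measured -1.25, -1.04, 0.62 and -1.004 in clones and -1.21, -1.47, -1.45 and -1.15 in normal animals, a difference of 0.65 (adjusted p = 0.537) that was 0.22 without clone 3. BAG4, a silencer of death receptors, measured 0.21, 0.49, 2.16 and 0.72 in clones and 0.43, 0.41, 0.05 and 0.12 in normal animals, and its difference of 0.64 (adjusted p = 0.544) was likewise 0.22 without clone 3. On these probes clones 2 and 4 were also above the normal animals, by far less. The other kept probe of BAG4 differed by 0.09 and kept clone 3 highest, at -1.72, but clones 1, 2 and 4 lay below every normal animal there, at -3.97, -3.42 and -3.65 against -3.38 to -3.17. BAG3, the partner of HSPB8, measured 1.57, 0.94, 2.55 and 1.30 in clones and 1.86, 1.73, 1.54 and 1.77 in normal animals and differed by -0.13. BAG2 and BAG6 were at 1.12 and 0.54 in clone 3 and at -0.27 to 0.23 and -1.21 to -0.68 in all other animals, while BAG1 differed by -0.10.

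HSF1, the master factor of the heat shock response, differed by -0.06 (95% interval -0.44 to 0.31), at 1.96, 1.57, 1.73 and 1.58 in clones and 1.89, 1.73, 1.74 and 1.73 in normal animals. The sign turned with normexp and 75th percentile centring, to 0.0386. HSF2, a factor of development and of proteasome stress, measured -0.38, -0.24, 0.08 and 0.08 in clones and -0.38, -0.63, -0.70 and -0.64 in normal animals, where clone 1 and normal animal 1 were all but equal. Its difference was 0.48 (95% interval 0.06 to 0.89, adjusted p = 0.309). Its other probe gave 0.64, with clone 1 within the normal range at -3.04. Transcript levels of HSF1 do not measure its activity, which is set on the protein.

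Other genes of protein folding gave a similar picture. Of 39 listed co-chaperones, prefoldin subunits, chaperonin regulators and mitochondrial proteases, 34 were measured, 15 higher and 19 lower with a median of -0.15, and 1 passed. That gene, PDCL2, a phosducin-like relative of the regulators of TRiC, fell by 1.82 on the log2 scale (95% interval -2.29 to -1.35, adjusted p = 0.0172). It measured -6.22, -5.67, -6.08 and -5.52 in clones and -4.28, -4.00, -3.97 and -3.95 in normal animals, with 3 of 4 clones well above background, so the size is limited by background. The phosphatase PPP5C, which acts on HSP90 clients, was lower by -0.48 (adjusted p = 0.355) and the HSP70 exchange factor HSPBP1 by -0.79 (adjusted p = 0.365). SIL1, the exchange factor of BiP, was higher by 0.44 (adjusted p = 0.399). FKBP5, an HSP90 co-chaperone of the glucocorticoid receptor named after its values were seen, measured 4.07, 2.31, 2.88 and -0.55 in clones and 3.69 to 4.25 in normal animals, a difference of -1.69 (adjusted p = 0.441) with clone 4 far below the rest.

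The single probe chosen for a gene mattered for some members. Of 50 members with several kept probes, 31 had the same sign on all of them and 19 had both signs, and 0 of the 179 kept probes of members passed. Members whose probes disagreed in sign are described above by the brightest probe, and the direction of their mean difference is uncertain. Probes of the same sign could also differ in size and in the placing of single clones.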

How the data were processed

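Lung RNA of 8 calves was measured on 1-colour Agilent arrays, with groups read from the titles. The Agilent Feature Extraction program wrote each scanner file, per the file headers. The deposited processed intensity is background-subtracted and was not normalized between arrays. The submitters' processing notes name version 10.7. The authors' deposited value table is on a log2 scale (r of at least 0.999 with the log2 processed signal, with a 75th percentile of 10.54 and a median of 7.89 in every column). Its direction is unchanged, the normalization behind it was not given in the sources used here, and it served as an alternative.

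Control spots and 2 to 21 outlier spots of 43803 per array were left out. From the log2 processed intensity of a spot the 75th percentile of its array was subtracted, and spots were averaged per probe (43653 probes). Probes well above background on at least 4 of 8 arrays were kept (35636). Accessions were matched without versions to bovine RefSeq genes on ARS-UCD2.0, which named 23492 probes. The array design is on another build, so no coordinates are given, and no probe or transcript sequence was used here. A gene's brightest kept probe represents it.

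The comparison used limma 3.58.1 under R 4.3.3 (lmFit, eBayes, group as the sole term, 2-sided), with Benjamini-Hochberg adjustment over all kept probes and a threshold of 0.05. The fit was checked on simulated data with the same spread in both groups and independent probes. That check does not cover the wider spread of the clones. Where nothing states separate cloning rounds or dams, p-values measure the spread between these animals. The number of arrays limits the precision. The members and gene lists were chosen with earlier results of these data known, and no list was tested. Named members were the 10 with the smallest p in each direction, the 5 with the widest spread in clones, a list of principal chaperones, and up to 4 other folding genes by p, and 39 members met this. Exceptions are marked as chosen after their values were seen, and members listed by their order among clones or completing a family are given as description.

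Alternatives were quantile normalization, median centring, normexp with an offset of 50 (on median spot signal and median background, the columns the files hold) before each normalization, a stricter filter on all 8 arrays and none at all, the authors' table, trend and robust eBayes, a block for the replicate number, array weights, a gene's mean over its kept probes, and each animal left out. A slide block could not be fitted because each slide holds 1 group. Same-numbered clones and normal animals share only a number.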

Additional observations from a re-analysis of the deposited data

Results flagged for a closer look

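In 12 of the 78 groups of 4 animals examined (each named member in clones and in normal animals), the highest or lowest animal lay farther from the rest than Dixon's test allows. Chance alone would mark about 1 group in 20, and 7 of the marks were in clones and 5 in normal animals. Clone 1 stood high in HSPD1, at 3.94 with the other clones between 2.34 and 2.57, and in AHSA1, at 3.38 against 2.78 to 2.86. Clone 3 stood high in PTGES3 (4.03 against 3.099 to 3.19), HSPA13 (0.65 against -1.28 to -1.10), BAG5 (0.62 against -1.25 to -1.004) and HSPB6 (0.89 against 0.59 to 0.64). Clone 4 stood high in HSPA1L, at -5.74 with the other clones between -6.19 and -6.15, near background.

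Among normal animals, animal 1 stood high in HSPA1A (1.90 against 1.07 to 1.18) and in HSF1 (1.89 against 1.73 to 1.74). Normal animal 3 stood low in PTGES3, at 3.31 with the others at 3.44, and high in DNAJC18 (0.95 against 0.75 to 0.78). Normal animal 4 was low in DNAJC6, at -6.71 against -6.39 to -6.35, close to background.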

How the results depend on the processing

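The count of 0 members past the threshold held under every alternative except array weights, with 29 members (4 higher, 25 lower; 38.7% of members and 32.4% of all genes), and leaving out clone 1, so that it ranged from 0 to 4 with an animal left out. The median difference was -0.28 with array weights and ranged from -0.24 to 0.02 with an animal left out. The 63 changed probes became 0 with normexp and 75th percentile centring (2278 at an unadjusted p under 0.05), 17 with a filter on all 8 arrays, 25 with normexp and quantile normalization, 146 with trend and robust eBayes, 11524 with array weights and 13 with the replicate block, and ranged from 17 to 2562 with an animal left out (2562 without clone 1, 451 without clone 3). The replicate block left 0 members past the threshold. Correlations of same-numbered animals were -0.20 to 0.10, and 2 of 4 clones correlated best with their own number.

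Signs turned in 21 of 426 values of the 39 named members under other settings. With normexp and 75th percentile centring, which moved the median of all probes from -0.02 to -0.32, these were CCT6B (-0.45), DNAJC6 (-0.61), HSF1 (0.0386), HSPA4 (0.0512), HSPA9 (0.0970), HSPB8 (0.00381), HSPE1 (0.11) and PTGES3 (0.11). HSP90AA1 and HSPB1 were -0.21 and -0.31 with quantile normalization and in the authors' table, -0.25 and -0.28 with normexp and quantile normalization, and -0.46 and -0.0665 with array weights. DNAJA4 was 0.0448 with normexp and quantile normalization, HSPB8 0.54 and TCP1 -0.0202 with array weights, and HSF1 0.0736 and HSP90AA1 -0.0553 over the mean of all kept probes. With an animal left out the sign turned in 22 of 312 values, with ranges of -0.45 to 0.0835 for BAG3, -0.59 to 0.30 for DNAJA4, -0.25 to 0.25 for HSP90AA1, -0.0387 to 0.61 for HSPA13, -0.38 to 0.10 for HSPA4, -0.49 to 0.0579 for HSPA5, -0.33 to 0.18 for HSPA9, -0.0338 to 0.19 for HSPB1, -0.41 to 0.46 for HSPB8, -0.52 to 0.0164 for HSPD1, -0.40 to 0.12 for HSPE1 and -0.25 to 0.0571 for PTGES3. The cause was not tested. Signal near background limits HSPA1L, DNAJC6 and HSPB3.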
